A study of Homo sapiens with 35 samples.

Results

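INTS13, a subunit of the Integrator complex, was depleted in HEK293T cells grown with glucose, and the transcripts of these cells were compared with those of cells that received a control siPOOL. HEK293T is an established human embryonic kidney line that carries a viral large T antigen. A siPOOL is a complex pool of small interfering RNAs against 1 transcript. It was given at 5 nM in repeated transfections, and RNA was taken after 72 h of depletion. All cells of the comparison were kept in medium with glucose and serum. The depleted group held 2 libraries, INTS13 3 and INTS13 4, and the control group held 4, numbered 3a, 3b, 4a and 4b. These 6 libraries were chosen by their labels from 35 libraries of total RNA sequencing, and the genes described are the 19275 of 60665 that passed a filter on low counts. The same depletion in cells kept for 24 h without glucose (4 control and 2 INTS13 libraries), and depletions of HDGF and ZNF655 with glucose (2 libraries each), served for comparison. The labels do not say whether replicates came from separate cultures, and every p-value therefore measures the spread between libraries, which may be technical. A siPOOL lowers a transcript in a mixed culture, so a lower level cannot be told apart from fewer cells that express the gene.

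Integrator binds RNA polymerase II near the start of genes. One module cleaves the nascent RNA, another carries a protein phosphatase, and together they end transcription early at many protein-coding genes and form the 3′ ends of small nuclear RNAs. INTS13 sits with INTS10 and INTS14 in a further module that can contact transcription factors and nucleic acids. Loss of Integrator activity can raise transcripts that the complex would have ended early. The depletion shows which transcripts differ when INTS13 is lowered, and action of the complex through partner transcription factors was not tested.

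INTS13 itself (ENSG00000064102, chromosome 12, 26905181 to 26938326 on hg38, minus strand) was measured first, as a check of the labels. Levels are given as CPM, counts relative to the scaled size of the library, in the order 3a, 3b, 4a and 4b for the controls and 3 and 4 for the INTS13 libraries. INTS13 was at 98.2, 102, 102 and 107 CPM in the controls and 14.2 and 14.2 CPM in the INTS13 libraries. It was left at 13.9% of control, with a log2 fold change of -2.85 ± 0.13 (SE; edgeR adjusted p = 3.48e-14). Both depleted libraries lay far below every control. The 6 libraries held 22.6 to 28.9 M counts each and detected 25371 to 26579 genes. The 2 INTS13 libraries differed from each other with a chi-square over 10190 genes of 4.12 for each degree of freedom, against 7.58 to 17.2 for pairs of controls, so no pair agreed within sampling noise. The neurofilament genes NEFL, NEFM and INA, VIM and CDH2, which HEK293T cells are known to express, were detected in all 6 libraries, and the kidney gene PAX2 was low at 0.549 to 1.55 CPM. PTPRC, a leukocyte marker, had 0 counts in the 6 libraries, and CSF1R, PECAM1, ALB, DCN and KRT5 had at most 4. The monocyte marker CD14 had 8 to 19 counts, and COL1A1, a collagen gene of fibroblasts, had 59 to 250 (2.43 to 9.45 CPM).

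Genes were called where edgeR's quasi-likelihood test gave an adjusted p under 0.05 over all 19275 genes, and the words rose and fell are used of called genes. In all, 2459 genes were called, 12.8% of those tested: 1258 rose (6.53%) and 1201 fell (6.23%). Which direction held more calls depended on the method, since DESeq2 gave 1252 rises and 1518 falls, edgeR with DESeq2 size factors 1193 and 1296, and edgeR on the 6 libraries alone 2340 and 2733. Taken over all called genes, the rises were larger than the falls. The median log2 fold change was 0.67 among genes that rose and -0.44 among genes that fell, 356 genes rose and 82 fell at least 2-fold, and 55 rose and 13 fell at least 4-fold. These counts depended on level. In the lowest of 4 equal classes of mean level 186 genes rose and 31 fell at least 2-fold, and in the highest 4 and 10. Genes that passed the filter only through higher depleted libraries would add to the rises, and how far they did was not tested. The 2 depleted and 4 control libraries did not overlap for 45.3% of all genes tested. Over all genes tested the median was 0.01, and 4898 genes had an unadjusted p under 0.05. The count of each list below is to be read beside the 6.53% higher and 6.23% lower of all genes. The number of calls rested on both depleted libraries: 868 genes were called without INTS13 library 3 and 1034 without library 4. Of the 167 called genes among the 196 that the naming rule selected, 88 kept the call with each of the 6 libraries left out in turn. A gene named below kept it in this way unless the text says otherwise. Against another pair of control libraries of the series, labelled as controls for ZMYND8 depletion, 2719 genes were called (14.1% of those tested, 7.28% higher and 6.83% lower), of which 1221 were among the 2459. Of the 167 named and called genes 113 kept their call there, 43 lost it and 11 turned.

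**Figure D1:**
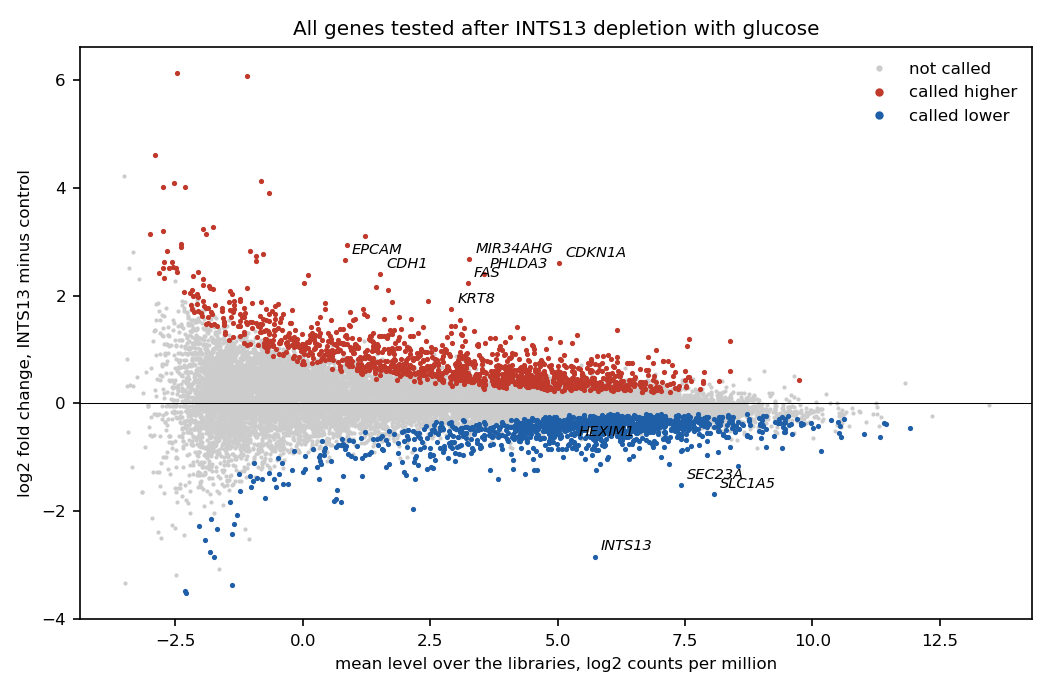
Log2 fold change (INTS13 minus control, vertical axis) against mean level (log2 CPM, horizontal axis) for 19275 genes; red points rose, blue points fell and grey points were not called. The largest rises, among them CDKN1A (2.60) and EPCAM (2.65), lie at low to middle levels, and blue points dominate at high levels.

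The 12 protein-coding genes with the largest rises and the 12 with the largest falls, among genes whose mean log2 CPM reached 2 and whose groups did not overlap, gave the clearest picture by library. CDKN1A, the gene of the cell-cycle inhibitor p21, was highest of all. PHLDA3, FAS, SPATA18 and TP53I3, all genes that DNA damage can switch on, were also among the 12, as was KRT8, a keratin of simple epithelia. The others were VAV1 (log2 1.57), an exchange factor for small GTPases best known from blood cells, the steroid sulfatase gene STS (1.54), the kinase inhibitor gene INKA2 (1.43), NAV1 (1.42), SELENOP (1.41), which carries selenium in plasma, and ZNF165 (1.40). The call of NAV1 was lost without INTS13 library 3. STS overlaps PUDP, KRT8 overlaps KRT18, and INKA2 overlaps RAP1A, DDX20 and an antisense RNA, INKA2-AS1 (1.10, called except without INTS13 library 3). How strand was used in counting is not given in the sources used here, so reads of such neighbours may be shared. Below INTS13, the largest falls were those of TCF24 (-1.96), SLC1A5 (-1.69), SEC23A (-1.52), the chaperone gene CLU (-1.41), AMOTL2 (-1.31), SCD5 (-1.25), HES4 (-1.24), NUMBL (-1.24), TM7SF2 (-1.23), BMPER (-1.22), which binds bone morphogenetic proteins, and the leptin receptor gene LEPR (-1.21). LEPR overlaps LEPROT, which rose by 0.40, a call that held only without control 4b.

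**Figure D2:**
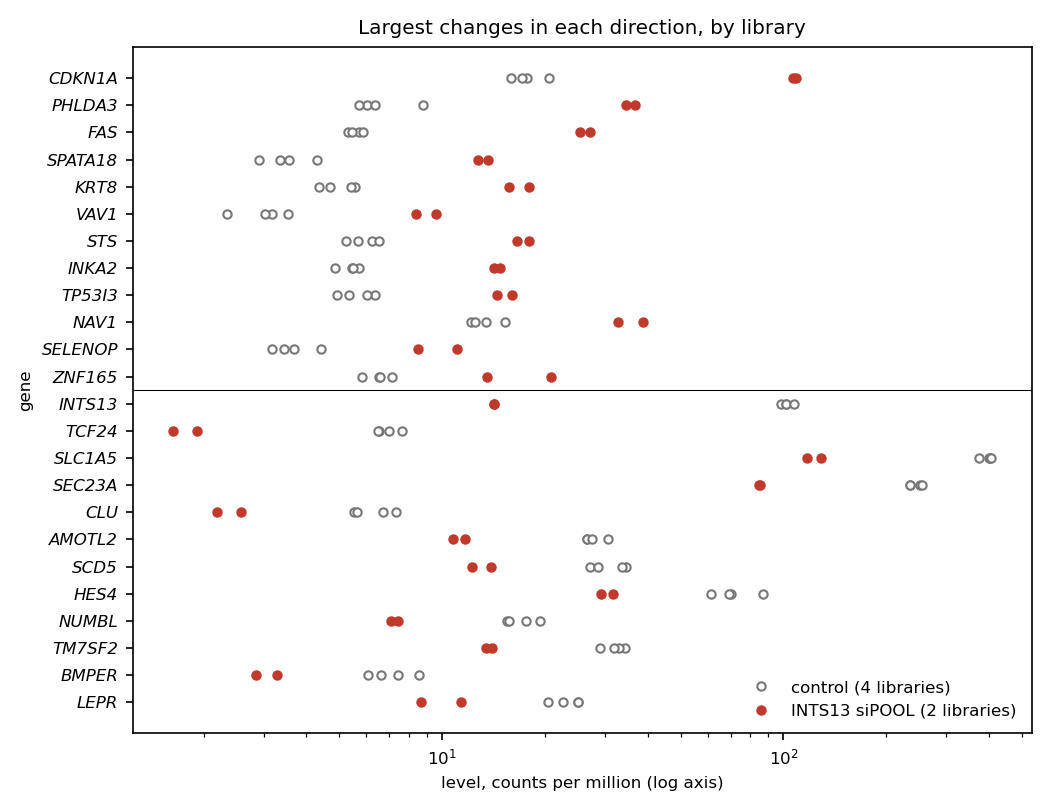
Level of the 12 most raised and 12 most lowered protein-coding genes in each library, in CPM on a log axis; open grey points are the 4 controls and red points the 2 INTS13 libraries. Groups do not overlap for any gene shown, which the rule for naming them required, and the 2 red points lie furthest apart for ZNF165 (13.6 and 20.8 CPM).

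Many genes that DNA damage can switch on rose. They are called damage response genes here as a name for the list only, since DNA damage was not measured. Genes of this list arrest the cell cycle, repair DNA, restrain growth and trigger cell death. Of 40 damage response genes tested, 26 rose and 14 did not pass, with a median log2 fold change of 0.61 beside 0.01 over all genes. Without INTS13 library 3 or 4, 21 and 21 rose. By role, 5 of 9 genes of cell-cycle arrest rose, 10 of 14 of cell death, 2 of 4 of DNA repair, 4 of 4 of feedback on the response and 5 of 9 of metabolism and growth.

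CDKN1A (ENSG00000124762, chromosome 6, 36676460 to 36687337) was at 17.7, 17.1, 20.6 and 15.9 CPM in the controls and 109 and 107 CPM in the INTS13 libraries (2.60 ± 0.13, adjusted p = 2.83e-13, edgeR). Control 4a was the highest control, and both depleted libraries stood far above it. FAS, a death receptor gene, was at 5.70, 5.29, 5.43 and 5.85 CPM in the controls and 27.1 and 25.3 CPM in the INTS13 libraries (2.24 ± 0.11, adjusted p = 1.49e-13, edgeR), and PHLDA3, which encodes an inhibitor of AKT, was at 8.79, 6.04, 5.69 and 6.37 CPM in the controls and 36.7 and 34.6 CPM in the INTS13 libraries (2.40 ± 0.18, adjusted p = 6.03e-10, edgeR). Neither gene's groups overlapped, as the rule for naming them required. The death receptor gene TNFRSF10B, whose product binds TRAIL, was at 53.8, 53.4, 54.0 and 48.8 CPM in the controls and 132 and 137 CPM in the INTS13 libraries (1.35 ± 0.07, adjusted p = 2.83e-13, edgeR), with control 4b below the other controls. MDM2, a ubiquitin ligase gene that limits the response, was at 201, 209, 207 and 205 CPM in the controls and 320.1 and 299 CPM in the INTS13 libraries (0.59 ± 0.09, adjusted p = 7.33e-05, edgeR). The rise of MDM2 was thus 1.50-fold in the same libraries in which CDKN1A rose 6.05-fold. SPATA18, which acts in mitochondrial quality control, went from 3.53 to 13.2 CPM, log2 1.89, and TP53I3, an oxidoreductase gene, from 5.65 to 15.2 CPM, log2 1.43. Outside the naming rule, 3 further genes of the list were picked after their values were seen. BTG2, an antiproliferative gene, went from 18.6 to 35.6 CPM, log2 0.94, and the glutaminase gene GLS2 from 1.94 to 8.39 CPM, log2 2.10. DDB2, which recognises ultraviolet damage in DNA, went from 12.6 to 29.8 CPM, log2 1.24. In the family of BCL2, which decides over mitochondrial cell death, 0 of 14 genes rose or fell by edgeR, DESeq2 called 1 lower, and 2 higher and 1 lower had an unadjusted p under 0.05.

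Noncoding transcripts changed as well. MIR34AHG, the host transcript of miR-34a, a microRNA known to rise after DNA damage, was at 4.95, 4.59, 6.08 and 5.00 CPM in the controls and 30.5 and 35.4 CPM in the INTS13 libraries (2.68 ± 0.19, adjusted p = 3.14e-10, edgeR). It was the largest rise among long noncoding genes by the naming rule, which required groups that do not overlap. The mature microRNA was not measured, since total RNA libraries of this kind do not hold it. It is shown here with the seed that pairs with its targets, bases 2 to 8, in capitals (RefSeq, GRCh38.p14, chr1:9151735-9151756, minus strand).
hsa-miR-34a-5p: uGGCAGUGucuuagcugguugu
PURPL, a long noncoding RNA, went from 11.9 to 26.3 CPM, log2 1.14, AC007952.4 from 10.2 to 23.8 CPM, log2 1.21 and SNHG16, a host of small nucleolar RNAs, from 255 to 567 CPM, log2 1.15. TMCC1-AS1 fell (19.5 to 7.39 CPM, log2 -1.40), as did HOXB-AS3 (5.48 to 2.19 CPM, log2 -1.32), LINC01963 (10.1 to 4.86 CPM, log2 -1.06) and LINC01876 (5.79 to 2.93 CPM, log2 -0.98). The calls of the last 3 did not hold throughout: HOXB-AS3 lost its call without INTS13 library 4, LINC01876 without either INTS13 library, and LINC01963 without either INTS13 library or control 4b. LINC01963 also changed sign against the controls labelled for ZMYND8 (log2 0.09). Of 28 abundant long noncoding RNAs, 2 rose, SNHG16 and PVT1 (1.06), and 2 fell, SNHG12 (-0.80) and SNHG17 (-0.35). SNHG12 lost its call without INTS13 library 3, and SNHG17 without either INTS13 library or control 3b. SNHG17 changed sign against the controls labelled for ZMYND8 (log2 0.18).

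Many epithelial genes rose as well. Cells of epithelia are held together by E-cadherin, EpCAM and tight junctions, and the repressors ZEB1, ZEB2 and the SNAI factors shut such genes in mesenchymal cells by binding E-boxes. Of 46 epithelial genes tested out of 66 listed, 23 rose, 2 fell and 21 did not pass, with a median of 0.50. The count rested on both depleted libraries, since 10 rose without INTS13 library 3 and 13 without library 4. It rested on the controls too: against those labelled for ZMYND8 13 rose and 2 fell, with a median of 0.10. Many members were near the limit of detection, and genes that passed the filter only through higher depleted libraries would add to the rises. Rises were found among genes of adhesion and junctions (11 of 23), among keratins and surface proteins (5 of 7) and among proteases and trafficking genes (6 of 11), and for 1 of 5 transcription and splicing factors.

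EPCAM (ENSG00000119888, chromosome 2, 47345158 to 47387601), an adhesion molecule of epithelia, was at 1.39, 0.510, 0.999 and 0.887 CPM in the controls and 6.78 and 5.26 CPM in the INTS13 libraries (2.65 ± 0.26, adjusted p = 7.50e-08, edgeR). CDH1 (ENSG00000039068, chromosome 16, 68737292 to 68835541), which encodes E-cadherin, was at 1.76, 1.33, 1.61 and 1.65 CPM in the controls and 8.25 and 8.61 CPM in the INTS13 libraries (2.40 ± 0.38, adjusted p = 8.27e-05, edgeR). Against the controls labelled for ZMYND8 CDH1 was higher by 1.27 ± 0.44 and was not called (adjusted p = 0.0525, edgeR). In both genes each depleted library stood far above the highest control, and the levels stayed low in absolute terms. KRT8 was at 5.57, 4.35, 4.69 and 5.41 CPM in the controls and 18.0 and 15.7 CPM in the INTS13 libraries (1.75 ± 0.15, adjusted p = 6.62e-09, edgeR), while its overlapping partner KRT18 rose by 0.32 (call lost without either INTS13 library or control 4a or 4b). PATJ, a scaffold of tight junctions, was at 58.2, 58.3, 58.7 and 59.1 CPM in the controls and 103 and 109 CPM in the INTS13 libraries (0.86 ± 0.09, adjusted p = 1.52e-07, edgeR). The groups of these genes did not overlap. Picked after their values were seen, the protease inhibitor gene SPINT2 went from 31.2 to 74.98 CPM, log2 1.26, the glycosyltransferase gene GALNT3 from 2.73 to 6.39 CPM, log2 1.23, BSPRY from 1.55 to 4.89 CPM, log2 1.65 and the junction gene F11R from 16.6 to 33.1 CPM, log2 0.99. OCLN, the tight junction gene occludin, fell by 0.27 on the log2 scale and CD24 by 0.84, both with calls lost without either INTS13 library, and CD24 also without control 3a or 4a.

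Transcripts of the repressors went both ways. ZEB1 was at 39.0, 42.2, 36.0 and 41.6 CPM in the controls and 32.7 and 34.3 CPM in the INTS13 libraries (-0.24 ± 0.11, adjusted p = 0.146, edgeR), was not called, and had both depleted libraries below every control. ZEB2 fell slightly (38.1 to 29.4 CPM, log2 -0.37, call lost without either INTS13 library) and SNAI2 rose (23.2 to 41.5 CPM, log2 0.84). Of 29 mesenchymal genes, 3 rose (10.3%) and 2 fell (6.90%), beside 6.53% and 6.23% of all genes. VIM, the intermediate filament of mesenchymal cells, was at 684, 660.1, 653 and 629.7 CPM in the controls and 379 and 365 CPM in the INTS13 libraries (-0.82 ± 0.08, adjusted p = 8.92e-08, edgeR), all controls above both depleted libraries. ACTA2, the smooth muscle actin gene, went from 1.59 to 7.12 CPM, log2 2.16, and it overlaps FAS on the opposite strand. COL1A1 went from 3.23 to 7.67 CPM, log2 1.24, a call lost without either INTS13 library, control 3b or control 4a.

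Promoter sequences were at hand for 27 of the 46 epithelial genes tested, from RefSeq on GRCh38.p14. That is under 80%, so counts of motifs over the list are given only as a description and are void as a result. Of all 27305 genes with an entry, 20.6% held the E-box CACCTG or its reverse complement CAGGTG on either strand within 250 bases before the start of at least 1 promoter. Of the 27 epithelial genes with an entry, risen or not, 17 held this E-box, and whether it bears on the rises was not tested. Of the 9 genes that rose and had an entry, 5 held it and 4 did not. Stretches of 3 that hold one are shown, because they carry the letters that repressors of the ZEB and SNAI families bind, with the E-box in capitals and up to 30 bases on each side. A match describes the sequence and is no measured site. PATJ lies on the plus strand (chr1:61742279-61742344), GALNT3 on the minus strand (chr2:165794305-165794370) and MAPK13, a p38 kinase gene that went from 3.36 to 5.84 CPM, log2 0.80 (call lost without INTS13 library 3), on the plus strand (chr6:36130304-36130369).
PATJ: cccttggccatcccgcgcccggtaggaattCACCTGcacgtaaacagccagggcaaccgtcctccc
GALNT3: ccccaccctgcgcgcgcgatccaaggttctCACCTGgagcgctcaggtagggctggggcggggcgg
MAPK13: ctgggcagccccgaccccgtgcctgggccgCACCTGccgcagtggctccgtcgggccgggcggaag

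**Figure D3:**
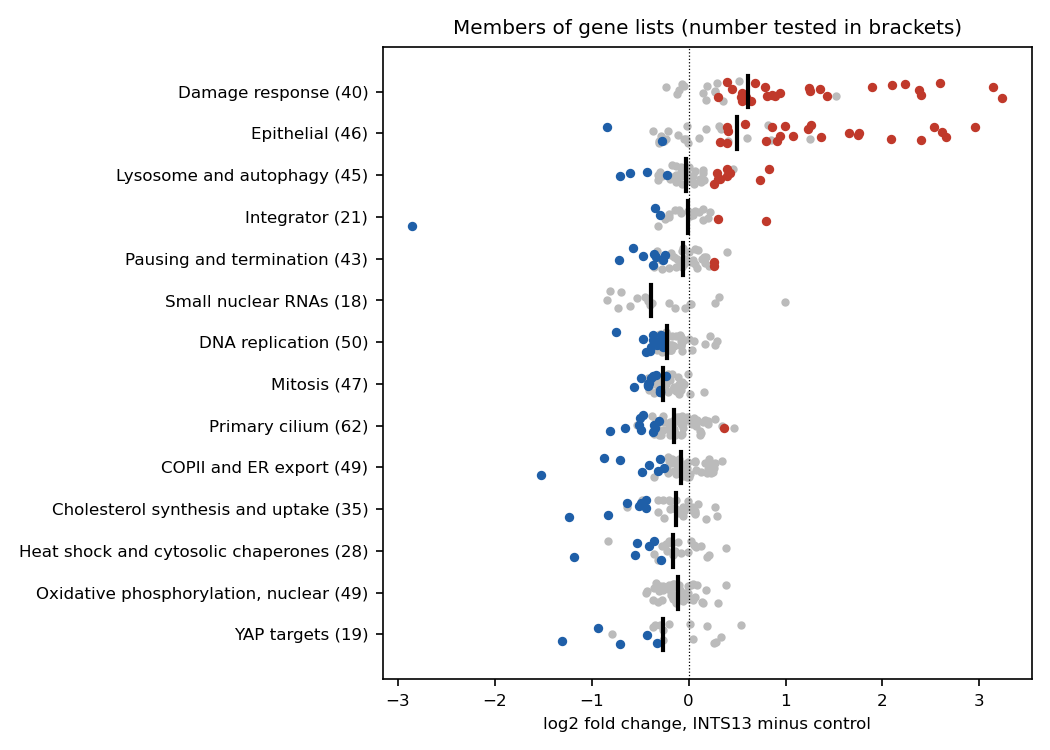
Log2 fold change of each tested member of 14 gene lists (horizontal axis), 1 row a list with the number tested in brackets; red points rose, blue fell, grey were not called, black bars are list medians and the dotted line is the median of all genes (0.01). Red points fill the rows of damage response and epithelial genes, and called points in the rows of DNA replication and mitosis are all blue.

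Transcripts of the other Integrator subunits stayed near control. Of 21 genes of the complex and its close partners, 2 rose, 3 fell, INTS13 included, and 16 did not pass, with a median of -0.01. These were 9.52% higher and 14.3% lower, beside 6.53% and 6.23% of all genes. INTS6L, a paralog of the phosphatase module subunit INTS6, was at 27.1, 27.2, 29.8 and 27.3 CPM in the controls and 46.6 and 50.3 CPM in the INTS13 libraries (0.80 ± 0.11, adjusted p = 1.21e-05, edgeR), with both depleted libraries above every control. INTS6 had a log2 difference of 0.05 ± 0.09 and was not called. INTS2, of the backbone, went from 71.9 to 88.7 CPM, log2 0.30, INTS8, of the phosphatase module, from 117 to 91.8 CPM, log2 -0.35 and INTS4, of the cleavage module, from 44.3 to 36.0 CPM, log2 -0.30. The calls of INTS2, INTS8 and INTS4 were lost without INTS13 library 3. In the cleavage module the catalytic subunit INTS11 differed by -0.07 ± 0.09 and its partner INTS9 by 0.15 ± 0.12. The partners of INTS13 in its own module, INTS10 and INTS14, differed by 0.07 ± 0.13 and 0.10 ± 0.09, and INTS15, listed under an older symbol, by -0.14 ± 0.09. The remaining subunits lay between -0.31 ± 0.12 (INIP) and 0.22 ± 0.17 (INTS3), and none of them was called.

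**Figure D4:**
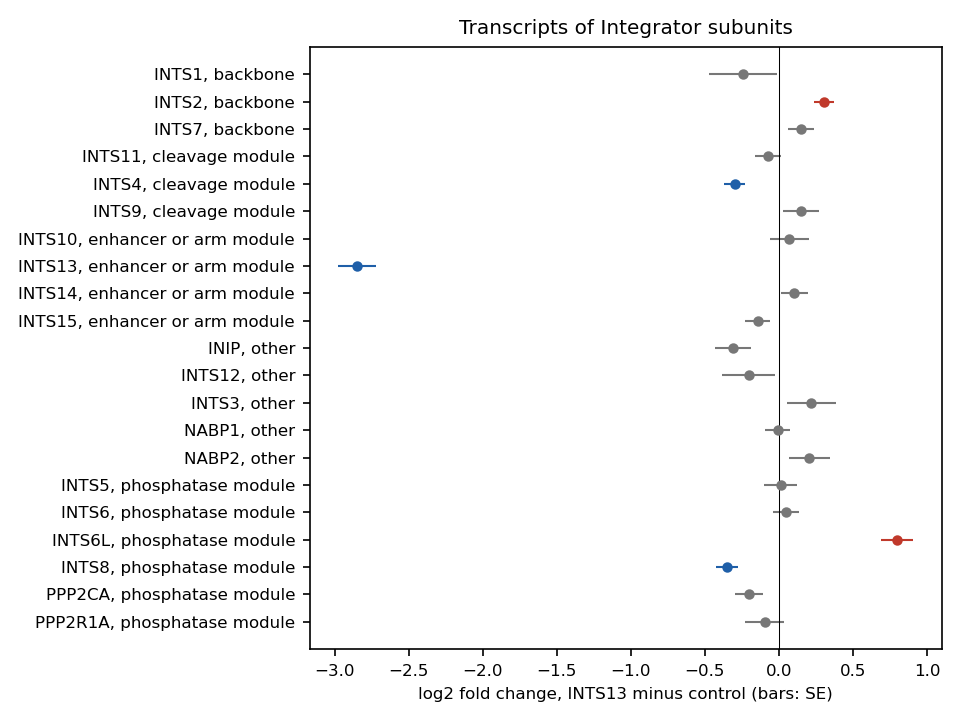
Log2 fold change with its SE (horizontal axis) of 21 genes of Integrator and its close partners, labelled with their module; red rose, blue fell, grey was not called. INTS13 stands alone at -2.85, INTS6L at 0.80, and the others lie between -0.35 and 0.30.

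Genes of transcription pausing and termination fell more often than they rose. Of 43, 2 rose and 8 fell, with 5 and 4 falling without INTS13 library 3 and 4. The median was -0.05. HEXIM1, which holds the elongation kinase P-TEFb inactive on 7SK RNA, was at 45.6, 45.0, 42.6 and 51.2 CPM in the controls and 26.6 and 29.3 CPM in the INTS13 libraries (-0.72 ± 0.14, adjusted p = 0.00101, edgeR). The depleted libraries lay below all controls, but against those labelled for ZMYND8 the difference was -0.14 and was not called. CSTF3, a cleavage stimulation factor, went from 84.5 to 60.9 CPM, log2 -0.47, and the exonuclease gene XRN2, which ends transcription behind the cleavage site, from 257 to 199 CPM, log2 -0.37. The 2 genes that rose, CPSF2 (0.27) and ELL2 (0.26), lost their calls without either INTS13 library, and ELL2 also without control 3a, 3b or 4b. Small nuclear RNAs, whose ends Integrator forms, gave no call. Of 18 tested, edgeR called 0 and DESeq2 0, 1 had an unadjusted p under 0.05, and without the filter on low counts edgeR called 5 lower and 1 higher. The pair of U4 genes differed by -0.38 ± 0.50 and -0.60 ± 0.54, and RNU5A-1 by -0.84 ± 0.51, so the error of such genes was large. Their summed share of counts was 0.816 to 1.51% in the controls, lower in 3a and 4a than in 3b and 4b, and 1.23 and 1.25% in the INTS13 libraries. Copies of these genes share reads, and gene counts do not tell extended from mature ends.

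Transcripts of the other genes depleted in the series were mostly not called. HDGF fell (552 to 471 CPM, log2 -0.23, adjusted p = 0.0479 from edgeR), a call lost without either INTS13 library or without control 3b, 4a or 4b. ZMYND8 had a difference of 0.42 ± 0.16, ZNF655 of -0.08 ± 0.10, TSPYL2 of -0.46 ± 0.23, ZNF608 of 0.01 ± 0.13, ZNF609 of 0.34 ± 0.16 and ZNF687 of 0.03 ± 0.14. Of 26 immediate early transcription factors, which cells switch on within minutes of a stimulus, 1 rose and 2 fell, and of 16 genes of MAP kinase feedback 1 fell. Over these 42 genes 2.38% rose and 7.14% fell, beside 6.53% and 6.23% of all genes. JUN was at 284, 272, 249 and 249 CPM in the controls and 155 and 153 CPM in the INTS13 libraries (-0.78 ± 0.13, adjusted p = 1.11e-04, edgeR), all controls above both depleted libraries. EGR1 (0.03 ± 0.76), FOS (-0.25 ± 0.51) and the EGR corepressor gene NAB2 (-0.24 ± 0.12) were not called. KLF10 (0.50), JUND (-0.64) and SPRED1 (-0.50) were called with all libraries and lost the call without either INTS13 library, JUND also without control 3a and SPRED1 without control 4a.

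Genes of the COPII coat, which buds vesicles from the endoplasmic reticulum, held one of the largest falls. SEC23A (ENSG00000100934, chromosome 14, 39031919 to 39109646), an inner coat subunit, was at 234, 251, 256 and 235 CPM in the controls and 84.9 and 85.4 CPM in the INTS13 libraries (-1.52 ± 0.07, adjusted p = 1.24e-13, edgeR). The depleted libraries stood at 34.9% of control and were nearly equal. SEC23B, its paralog, was at 105, 119.5, 119.8 and 114 CPM in the controls and 67.6 and 73.1 CPM in the INTS13 libraries (-0.71 ± 0.08, adjusted p = 3.29e-07, edgeR). SAR1A, the GTPase that starts coat assembly, was at 189, 221, 232 and 213 CPM in the controls and 114 and 119.7 CPM in the INTS13 libraries (-0.87 ± 0.12, adjusted p = 1.25e-05, edgeR). Both genes had every control above both depleted libraries. Among 49 genes of export from the endoplasmic reticulum 8 fell, 5 of them among 17 coat genes, and 41 did not pass, with a median of -0.07. Without INTS13 library 4, 5 fell. Of 22 SNAREs of later steps, VAMP8 (6.36 to 15.6 CPM, log2 1.29) and STX3 (44.8 to 67.6 CPM, log2 0.59) rose, and NSF (-0.45) and STX2 (-0.21) fell. STX3 lost its call without INTS13 library 4 and NSF without library 3. STX2 kept its call only without control 4a.

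SLC1A5 (ENSG00000105281, chromosome 19, 46774883 to 46788594), the main glutamine transporter of proliferating cells, was at 401, 404, 406 and 375 CPM in the controls and 129 and 117 CPM in the INTS13 libraries (-1.69 ± 0.12, adjusted p = 3.14e-10, edgeR). Control 4b was the lowest control and still far above both depleted libraries. Of 27 amino acid transporters 4 rose (14.8%) and 2 fell (7.41%), beside 6.53% and 6.23% of all genes. The glutamate transporter gene SLC1A1 fell (9.25 to 5.20 CPM, log2 -0.83), and the glycine transporter gene SLC6A9 (11.4 to 23.0 CPM, log2 1.01), SLC43A1 (18.4 to 27.9 CPM, log2 0.60) and SLC36A1 (25.9 to 38.4 CPM, log2 0.57) rose, the last with a call lost without INTS13 library 4, where 2 transporters rose in all. PSAT1, an enzyme of serine synthesis, was at 159.8, 139, 151 and 132 CPM in the controls and 304 and 304 CPM in the INTS13 libraries (1.06 ± 0.13, adjusted p = 3.65e-06, edgeR), and its groups did not overlap. It was one of 2 genes that rose and 2 that fell among 40 genes of the integrated stress response, whose median was 0.01. These counts, 5% each, were under the 6.53% and 6.23% of all genes. Those counts were 1 and 0 without INTS13 library 3, and the falls were 1 without INTS13 library 4 or control 3a and 0 without control 3b or 4a. Of 20 cytosolic tRNA synthetase genes 4 fell, led by LARS1 (398 to 298 CPM, log2 -0.42), and 1 and 2 fell without INTS13 library 3 and 4.

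Genes of cell division fell by small amounts. Of 50 genes of DNA replication 13 fell and 37 did not pass, with a median of -0.23, and 13 of 47 mitotic genes fell, with a median of -0.27, beside 6.23% of all genes that fell. TK1, the thymidine kinase of S phase, was at 106, 104, 102 and 106 CPM in the controls and 64.6 and 59.8 CPM in the INTS13 libraries (-0.75 ± 0.09, adjusted p = 2.30e-06, edgeR). MCM7, a subunit of the replicative helicase, went from 839 to 639 CPM, log2 -0.39. BIRC5, which encodes survivin, was at 272, 280.1, 276 and 281 CPM in the controls and 193 and 183 CPM in the INTS13 libraries (-0.56 ± 0.08, adjusted p = 3.76e-05, edgeR), and the spindle checkpoint genes BUB1 and BUB1B went from 209 to 156 CPM, log2 -0.42 and from 122 to 91.5 CPM, log2 -0.42. In TK1 and BIRC5 the groups did not overlap. Without INTS13 library 3 the counts were 4 and 4 genes, and without library 4 5 and 4. Among 25 cyclins, kinases and inhibitors of G1 phase, CCND2 rose (144 to 329 CPM, log2 1.19) and CCND3 fell (44.8 to 26.4 CPM, log2 -0.76), a pair of cyclins that serve the same kinases. CDC25A (-0.40) and RBL1 (-0.29) also fell and E2F1 (0.24) and CCNE1 (0.34) rose, and each of these 4 lost its call without INTS13 library 3 and all but CDC25A also without library 4. Control 3a bore on RBL1 and CCNE1 in the same way, control 3b on RBL1 and E2F1, control 4a on E2F1 and control 4b on RBL1, E2F1 and CCNE1. CDC25A changed sign against the controls labelled for ZMYND8 (log2 0.10). Replication-dependent histone genes, whose transcripts carry no poly(A) tail, had a median of -0.39, and 4 of 43 fell. The count was 1 without INTS13 library 3, 0 without library 4 and 2 without control 3a or 3b. In a fit of the libraries numbered 3 and 4 alone, without those of the ZMYND8 experiment, called the second set here, 24 histone genes fell. Histone genes held 1.12 and 1.15% of counts in the INTS13 libraries and 1.25 to 1.51% in the controls, and the copies of the family share reads.

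Lipid synthesis genes fell in part. Sterols are made from acetyl-CoA by a chain of enzymes under control of SREBP2. Of 21 genes of sterol synthesis 7 fell, with a median of -0.32, and 3 fell without either INTS13 library. TM7SF2, a sterol reductase gene, was at 34.4, 29.1, 33.0 and 31.9 CPM in the controls and 13.95 and 13.4 CPM in the INTS13 libraries (-1.23 ± 0.09, adjusted p = 7.75e-10, edgeR) and overlaps VPS51. MVD, an enzyme of the mevalonate part, went from 47.1 to 26.4 CPM, log2 -0.83 and LBR, the other reductase of this step, from 554 to 389 CPM, log2 -0.51. Of 14 genes of sterol regulation, uptake and export 0 were called, with a median of -0.05. Of 24 fatty acid genes 1 rose and 5 fell. SCD5, a desaturase gene, was at 34.6, 27.1, 28.7 and 33.7 CPM in the controls and 13.9 and 12.2 CPM in the INTS13 libraries (-1.25 ± 0.16, adjusted p = 3.78e-06, edgeR), both depleted libraries below all controls. The rise was that of ACSS2 (0.33), a call lost without either INTS13 library or without control 3b, 4a or 4b. Without INTS13 library 3 or 4, 3 and 1 fatty acid genes fell.

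Among 40 genes of glycolysis and glucose sensing 3 rose and 6 fell, with fewer falls without either INTS13 library. These were 7.5% and 15%, beside 6.53% and 6.23% of all genes. The rises numbered 0 without INTS13 library 3 and 1 without library 4, control 3b or control 4a. SLC16A1, a lactate transporter gene, went from 606 to 436 CPM, log2 -0.47 and the glycolytic enzyme gene ALDOA from 17.8 to 10.4 CPM, log2 -0.78, a gene whose counts in this table may be split with overlapping transcripts. TXNIP, which cells raise when glucose is plentiful, was at 18.2, 21.6, 24.1 and 20.7 CPM in the controls and 30.9 and 30.4 CPM in the INTS13 libraries (0.54 ± 0.20, adjusted p = 0.0761, edgeR), and its relative ARRDC4 differed by 0.19 ± 0.12. Neither was called. Nuclear genes of oxidative phosphorylation gave no call among 49 by edgeR and 3 lower calls by DESeq2, with 2 higher and 8 lower at an unadjusted p under 0.05 and a median of -0.11. With second-set libraries alone edgeR called 20 of them lower.

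Several signalling lists held single large changes. AMOTL2, a scaffold that YAP induces and that restrains it, was at 26.5, 30.6, 26.5 and 27.6 CPM in the controls and 11.7 and 10.7 CPM in the INTS13 libraries (-1.31 ± 0.15, adjusted p = 6.68e-07, edgeR), with no overlap. AJUBA went from 24.8 to 15.2 CPM, log2 -0.70, and 5 of 19 YAP targets fell in all, 3 without either INTS13 library or without control 3a. In the Notch pathway, through which neighbouring cells set each other's fate, 3 of 21 genes rose and 4 fell. JAG1, a ligand, was at 6.14, 5.25, 4.82 and 5.04 CPM in the controls and 12.9 and 11.95 CPM in the INTS13 libraries (1.22 ± 0.18, adjusted p = 2.80e-05, edgeR). HEY1, a target, was at 161, 161, 159.6 and 149 CPM in the controls and 231 and 248 CPM in the INTS13 libraries (0.60 ± 0.07, adjusted p = 5.83e-07, edgeR), and HES4, another target, was at 87.1, 70.1, 69.3 and 61.5 CPM in the controls and 31.8 and 29.3 CPM in the INTS13 libraries (-1.24 ± 0.22, adjusted p = 3.24e-04, edgeR). The ligand and HEY1 thus rose while HES4 fell, and none of the 3 had overlapping groups. Without INTS13 library 3 or 4, 2 and 1 Notch genes fell. TAP1, the peptide transporter of antigen presentation, was at 14.8, 13.4, 13.5 and 13.8 CPM in the controls and 25.7 and 24.8 CPM in the INTS13 libraries (0.86 ± 0.10, adjusted p = 8.53e-07, edgeR), one of 5 genes that rose among 32 of the interferon response. That count was 1 without INTS13 library 3, 2 without library 4 and 3 without control 3b or 4a. Of 21 targets of TGF-beta and bone morphogenetic proteins, BAMBI, a pseudoreceptor gene, fell (20.0 to 12.9 CPM, log2 -0.63) and PMEPA1 rose (5.17 to 8.56 CPM, log2 0.72), with 3 rises and 2 falls in all. The rises were 1 without INTS13 library 3, and the falls were 1 without either INTS13 library, control 3b or control 4a.

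Genes of lysosomes and autophagy split, with 20% higher and 8.89% lower, beside 6.53% and 6.23% of all genes. Of 45, 9 rose and 4 fell, with a median of -0.02, and 3 and 4 rose without INTS13 library 3 and 4. The falls were 2 without INTS13 library 3. ATP6V1H, a subunit of the proton pump that acidifies lysosomes, went from 56.6 to 75.9 CPM, log2 0.42 and the protease gene ATG4A from 22.4 to 37.3 CPM, log2 0.73. The sialidase gene NEU1 was at 82.7, 92.8, 93.7 and 84.1 CPM in the controls and 50.1 and 58.0 CPM in the INTS13 libraries (-0.71 ± 0.10, adjusted p = 2.53e-05, edgeR) and the autophagy receptor gene SQSTM1 went from 263 to 173 CPM, log2 -0.61. Of 28 chaperones 6 fell, 2 without INTS13 library 3. Among them HSPA9, of the mitochondrial matrix, went from 802 to 555 CPM, log2 -0.53 and TCP1, a subunit of a cytosolic folding chamber, from 816 to 615 CPM, log2 -0.41.

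Genes of the primary cilium, the antenna on which Hedgehog signals are received, fell in 10 of 62 cases, with a median of -0.15. The count was 2 without INTS13 library 3 and 3 without library 4. The only rise in the list, CC2D2A (0.36), lost its call without any 1 of the 6 libraries. SMO, the Hedgehog transducer, went from 61.3 to 49.7 CPM, log2 -0.30 and WDR35, of intraflagellar transport, from 84.9 to 60.2 CPM, log2 -0.50. INTS13 is also known as a regulator of dynein at the nuclear envelope. Of 31 genes of dynein and dynactin, PAFAH1B1, whose product LIS1 activates the motor, fell (198 to 140.2 CPM, log2 -0.50) and its partner NDEL1 rose (44.3 to 56.2 CPM, log2 0.34, call lost without INTS13 library 4). Neuronal genes, of which HEK293T cells express many, went both ways, with 8 of 55 higher and 6 lower. These were 14.5% and 10.9%, beside 6.53% and 6.23% of all genes. The tubulin gene TUBB2B fell (45.3 to 28.1 CPM, log2 -0.69) and the synaptic vesicle gene SYP rose (14.1 to 20.5 CPM, log2 0.53). Without INTS13 library 3 or 4, control 4a or control 4b, 4 neuronal genes rose, and without control 3b 5.

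In the remaining lists calls were few in number, though in several the shares lay above the 6.53% higher or 6.23% lower of all genes. Of 32 chaperones of the endoplasmic reticulum 3 rose and 2 fell. Of 22 genes in a list on NRF2 and glutathione 2 rose (9.09%) and 3 fell (13.6%). KEAP1, the inhibitor of NRF2, was among those that rose (89.7 to 118 CPM, log2 0.40). The median of this list was -0.24 and its upper quartile -0.01. Among 19 Wnt targets there was 1 rise and 2 falls (10.5%). Among 38 HOX genes there were 4 rises and 4 falls (10.5% each), led by HOXD13 (81.4 to 60.9 CPM, log2 -0.42). Of 199 zinc finger genes of chromosome 19 4 rose and 8 fell, shares under those of all genes. Cytosolic ribosomal protein genes had a median of -0.18 and 2 of 84 fell, against 47 with second-set libraries alone. Leaving out either INTS13 library lowered each of these counts by more than 1.5 times, to between 0 and 5, and each of the 4 controls did so for at least 1 of them.

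Called genes differed by class and level. By biotype of GENCODE release 29, 5.54% of 1138 lincRNA genes rose and 1.05% fell, and 5.26% of 1406 antisense genes rose and 1.56% fell. Among 13753 protein-coding genes 7.51% rose and 8.32% fell. In the lowest of 4 equal classes of mean level, 4.07% rose and 0.66% fell, and in the highest class 3.59% rose and 13.1% fell. Scaling by DESeq2 size factors gave 158 rises and 683 falls in the highest class, beside 173 and 629 with the TMM factors used here. Across protein-coding genes the fold change was nearly unrelated to the span of the gene (Spearman's rank correlation 0.0590 over 13753 genes, which are not independent replicates). Genes with a gene on the same strand ending within 5000 bases upstream rose in 6.91% of 2517 cases and the others in 7.65% of 11236. These shares are descriptions and were not tested against each other.

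The controls labelled for ZMYND8 gave other counts for many lists. Of the damage response genes 25 of 40 were higher, with a median of 0.60. Most of those named had smaller rises than above, such as PHLDA3 (1.57), SPATA18 (1.18) and GLS2 (1.27). The rises of CDKN1A (2.39), FAS (1.98), TP53I3 (1.03) and DDB2 (0.83) were also smaller. TNFRSF10B (1.28) and MDM2 (0.56) were little changed, and the rise of BTG2 was larger (1.18). Replication and mitotic genes fell in 11 and 15 cases. Of the neuronal genes 1 was higher and 9 lower, of the genes of export from the endoplasmic reticulum 6 were higher and 9 lower, and of the zinc finger genes 23 and 13. Higher and lower calls were 7 and 0 among chaperones of the endoplasmic reticulum, 9 and 2 among HOX genes and 2 and 3 among amino acid transporters. They were 0 and 8 among genes of glycolysis and glucose sensing and 1 and 0 among targets of TGF-beta and bone morphogenetic proteins. Lower calls numbered 16 among cilium genes, 13 among histone genes, 10 among fatty acid genes, 5 among genes of pausing and termination, 3 among the chaperones and 2 among YAP targets. Named genes that kept their direction but were not called against these controls were SELENOP (0.81), SLC6A9 (0.38), SLC43A1 (0.10), ATG4A (0.46), SQSTM1 (-0.14), TCP1 (-0.26), SYP (0.06), PAFAH1B1 (-0.30), AJUBA (-0.24) and BAMBI (-0.21), beside CDH1 and HEXIM1. So were HOXB-AS3, INTS4, CPSF2, KLF10, SPRED1, OCLN, COL1A1, KRT18, NSF, ACSS2, SNHG12 and HDGF, whose calls also rested on single libraries. Among other genes, calls were kept with a smaller fall of CLU (-0.79), SAR1A (-0.48) and AMOTL2 (-0.84). They were also kept with a smaller rise of BSPRY (0.93), PSAT1 (0.49), VAV1 (1.01) and EPCAM (2.10). Changes were larger for the falls of TUBB2B (-1.33), SLC1A1 (-1.43) and LEPR (-1.67) and the rises of PVT1 (1.65) and STS (1.85).

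The same depletion without glucose came from other libraries, controls included. There 744 genes were called, 3.86% of those tested, 448 higher (2.32%) and 296 lower (1.54%). Leaving out a starved INTS13 library gave 153 calls (library 3) and 252 (library 4). Of the 2459 genes called with glucose, 2329 (94.7%) had the same sign in starved cells. The share of all genes tested with the same sign was not computed, so this percentage stands without a baseline. In both conditions 593 genes were called in the same direction, 24.1% of the calls with glucose and 79.7% of the calls without, and 0 genes were called in opposite directions. CDKN1A was at 30.5 ± 2.05 CPM (SD, n = 4) in starved controls and 115 ± 8.15 CPM (n = 2) in starved INTS13-depleted cells (1.92 ± 0.13, adjusted p = 5.02e-10, edgeR), EPCAM was at 0.537 ± 0.125 CPM (SD, n = 4) in starved controls and 3.48 ± 0.128 CPM (n = 2) in starved INTS13-depleted cells (2.70 ± 0.30, adjusted p = 1.95e-06, edgeR), and SLC1A5 was at 442 ± 4.46 CPM (SD, n = 4) in starved controls and 219 ± 21.2 CPM (n = 2) in starved INTS13-depleted cells (-1.01 ± 0.12, adjusted p = 3.39e-06, edgeR). All 3 moved as with glucose. INTS13 itself was at 104 ± 2.00 CPM (SD, n = 4) in starved controls and 19.3 ± 0.770 CPM (n = 2) in starved INTS13-depleted cells. Of the 40 damage response genes 23 rose without glucose, 12 of the 46 epithelial genes rose, and the medians were 0.64 and 0.42. Mitotic genes had a median of -0.07 and 1 fell, and 3 replication genes fell. For 3 genes of 19275 the effects of the 2 conditions differed by edgeR's test of the difference (0.0156% of genes, with 1103 at an unadjusted p under 0.05 and 45 called by DESeq2). SEC23A fell by 1.52 with glucose and by 0.81 without (difference 0.70 ± 0.10, adjusted p = 0.00207). MSRB3, a methionine sulfoxide reductase gene, and KCTD20 were the other two. The number of such genes went from 3 to 0 without the starved INTS13 library 3 and to 1 without INTS13 library 4, starved INTS13 library 4, control 4a or starved control 3a, and to 7 without control 3a.

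**Figure D5:**
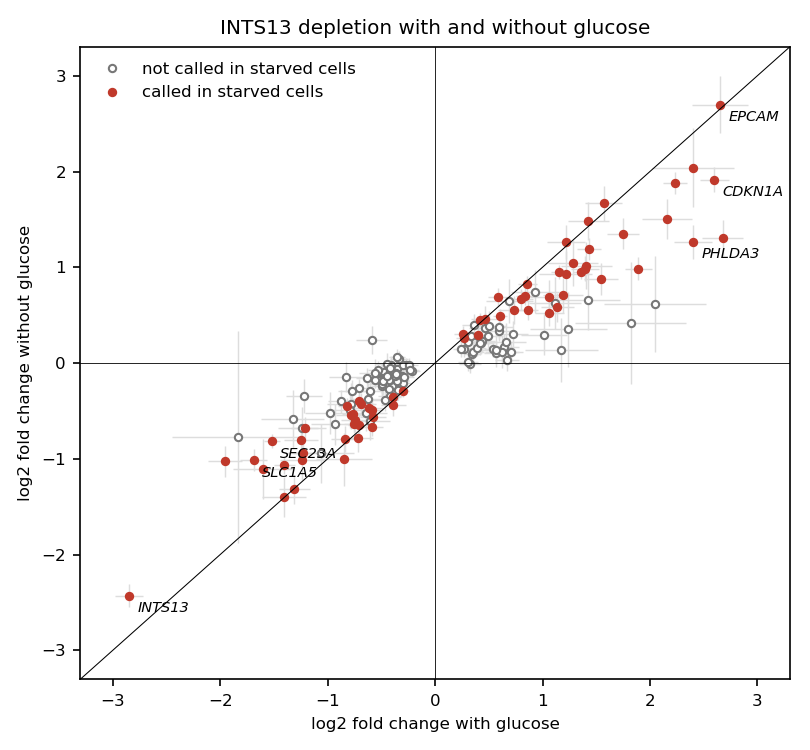
Log2 fold change without glucose (vertical axis) against that with glucose (horizontal axis) for the 167 named genes called with glucose, each with its SE; filled points were also called without glucose and the diagonal marks equal effects. In 163 genes the sign is the same, 66 were called in both, and SEC23A lies off the diagonal.

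Most of the largest changes, but not all, were also found against other depletions with the same reagent. Of the 12 largest rises 10 were called higher than in HDGF depletion and 8 higher than in ZNF655 depletion, and of the 12 largest falls, INTS13 included, 11 and 10 were called lower. STS and SELENOP were called in neither comparison, CLU was not called against HDGF depletion, and PHLDA3, NAV1, AMOTL2 and BMPER were not called against ZNF655 depletion. Here the INTS13 libraries were compared directly with the HDGF and the ZNF655 libraries, so the INTS13 libraries were those on which the genes had been named. Against HDGF depletion 1586 genes were called (8.23% of those tested, 4.89% higher and 3.34% lower), and 84 of the 167 named and called genes were among them in the same direction. Against ZNF655 depletion 1311 genes were called (6.8%, with 3.14% higher and 3.66% lower), 69 of the 167 among them. Leaving out any of the 4 libraries of a comparison gave 579 to 744 calls against HDGF depletion and 458 to 586 against ZNF655 depletion. CDKN1A was higher than in HDGF depletion by 2.01 ± 0.17, adjusted p = 1.17e-08 (edgeR) and higher than in ZNF655 depletion by 0.71 ± 0.16, adjusted p = 0.00535 (edgeR). Its level in ZNF655 depletion, 65.8 ± 12.8 CPM (SD, n = 2), lay between that of control and of INTS13 depletion. Levels of 3 further genes in ZNF655 depletion also lay between those of control and INTS13 depletion. PHLDA3 was at 27.3 ± 0.562 CPM (SD, n = 2), FAS at 18.3 ± 1.34 CPM (SD, n = 2) and MIR34AHG at 23.1 ± 2.01 CPM (SD, n = 2). INTS13 depletion was higher than ZNF655 depletion by 0.52 ± 0.13, adjusted p = 0.0116 (edgeR) for FAS, and the differences of PHLDA3 (0.38 ± 0.21, adjusted p = 0.330) and MIR34AHG (0.51 ± 0.22, adjusted p = 0.186) were not called (edgeR). VIM, at 336 ± 28.2 CPM (SD, n = 2), differed by 0.14 ± 0.09, adjusted p = 0.423, and ACTA2, at 10.8 ± 1.62 CPM (SD, n = 2), by -0.60 ± 0.24, adjusted p = 0.147 (edgeR), and neither was called. XRN2 and CSTF3 each differed from ZNF655 depletion by -0.04 and were not called, though both were called lower than in HDGF depletion. SNHG16 was at 499 ± 10.0 CPM (SD, n = 2) in HDGF depletion and 395 ± 17.0 CPM (SD, n = 2) in ZNF655 depletion. INTS13 depletion was higher than ZNF655 depletion by 0.52 ± 0.09 (adjusted p = 4.30e-04, edgeR). Its difference from HDGF depletion, 0.18 ± 0.09 (adjusted p = 0.239, edgeR), was not called. EPCAM was higher by 3.81 ± 0.37, adjusted p = 1.22e-07 and by 2.42 ± 0.31, adjusted p = 1.38e-05 (edgeR), and CDH1 by 2.81 ± 0.49, adjusted p = 4.72e-04 and by 1.52 ± 0.44, adjusted p = 0.0328 (edgeR). SEC23A was lower than in HDGF depletion (-1.25 ± 0.08, adjusted p = 7.47e-11, edgeR) and than in ZNF655 depletion (-0.90 ± 0.08, adjusted p = 4.27e-08, edgeR). SLC1A5 differed by -1.56 ± 0.13, adjusted p = 1.70e-08 and by -1.47 ± 0.13, adjusted p = 5.37e-08 (edgeR).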

How the data were processed

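Total RNA of HEK293T cells was ribosome-depleted and sequenced as stranded libraries, per the labels' protocols. The authors deposited raw counts per gene, made before duplicate removal, and per the submitters' processing notes they used FastQC, cutadapt and STAR on hg38, with no versions. The counting tool and its strand setting are not given in the sources used here. Reads that share a molecule were therefore counted more than once, and overlapping genes may share reads. All 37 mitochondrial genes held 0 counts. Biotypes came from GENCODE release 29, which holds 96.3% of the identifiers.

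Counts were filtered with filterByExpr (19275 genes left) and scaled by TMM, and group means of all 15 groups (35 libraries) were fitted together by quasi-likelihood in edgeR 4.0.16 under R 4.3.3, with each comparison as a contrast. All tests were two-sided, adjusted by Benjamini-Hochberg, and called under 0.05. The fit was tested on simulated data. DESeq2 1.42.0, other scaling, filters, subsets, controls, blocks and left-out libraries were alternatives. Named genes were INTS13, Integrator genes, a fixed set of genes of interest, the 12 largest protein-coding and 4 noncoding changes a direction without overlap, and up to 3 called members of each list a direction by adjusted p. The members and lists were chosen with earlier results of these data known. Sequences are from RefSeq. The level of 1 gene is not reported here.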

Additional observations from a re-analysis of the deposited data

Results flagged for a closer look

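One control library stood apart from the other 3 for 11 of the 196 named genes, by a gap larger than Dixon's critical value at 95%. Chance passes this value in about 1 of 20 groups, so about as many genes would be flagged by chance alone. Control 4b was lowest for SLC1A5 (gap 0.846 of the range), INTS5 (0.945), TNFRSF10B (0.882) and HEY1 (0.856) and highest for INTS3 (0.861). Control 4a was highest for INTS6L (0.943) and SPRED1 (0.858) and lowest for FTL (0.833). Control 3b was highest for AC007952.4 (0.894) and HEY2 (0.926), and control 3a was highest for INTS1 (0.918). Among these, only SPRED1, HEY2 and FTL lost their calls when some library was left out, and INTS1, INTS3 and INTS5 were not called with all libraries.

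The effect of INTS13 depletion differed between starved cells and cells with glucose for 3 genes by edgeR's test of the difference. For SEC23A the difference was 0.70 on the log2 scale (adjusted p = 0.00207), with a fall of 1.52 with glucose and of 0.81 without. SEC23A was at 196 ± 7.28 CPM (SD, n = 4) in starved controls and 111 ± 5.11 CPM (n = 2) in starved INTS13-depleted cells, so that its control level was also lower without glucose. For MSRB3 it was 0.79 (adjusted p = 0.0184), with changes of -1.03 and -0.24, and for KCTD20 0.60 (adjusted p = 0.0372), with changes of -0.89 and -0.30. MSRB3 was at 20.0 ± 0.239 CPM (SD, n = 4) in starved controls and 16.9 ± 0.608 CPM (n = 2) in starved INTS13-depleted cells, against 29.1 ± 2.02 CPM (n = 4) in controls and 14.3 ± 2.17 CPM (n = 2) in INTS13-depleted cells with glucose.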

How the results depend on the processing

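The 2459 calls became 5624 with second-set libraries alone, 5073 with the 6 libraries alone, 1617 with controls of 1 number summed, 1325 with controls 3a and 4a alone and 1593 with controls 3b and 4b alone (the last 2 chosen after seeing the data), and 868 to 2262 with a library left out. DESeq2 called 2770, of which 2369 were shared, and the ZMYND8 controls gave 2719, of which 1221 were shared. With second-set libraries alone the calls were 3047 in starved cells, 307 for the difference, 4332 against HDGF and 4077 against ZNF655, and DESeq2 gave 45 for the difference. Left-out libraries gave 153 to 567 calls in starved cells, 0 to 7 for the difference, 579 to 744 against HDGF and 458 to 586 against ZNF655. With 1 INTS13 library left, it is assumed to vary like the other groups. The cause of these shifts was not tested.

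The replicate numbers 3 and 4 do not establish pairs, since the difference between numbers correlated by 0.122 over 10190 genes between INTS13 and control libraries and only 2 numbers exist. A replicate block gave 4400 calls with all libraries and 4743 with the 6 alone, and 1883 in starved cells, 22 for the difference, 3157 against HDGF and 2803 against ZNF655.

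Of 167 named and called genes, all kept their direction under every alternative except the controls labelled for ZMYND8, against which 113 kept their call, 43 lost it and 11 turned: LINC01963 (0.0919), GNG4 (-0.0542), PCK2 (-0.20), SLC2A3 (-0.39), CDC25A (0.10), INHBA (0.61), SNHG17 (0.18), H3C13 (0.18), RPL36A (0.12), HOXB13 (-0.0275) and HOXA9 (0.22). ZNF608, not called in the main comparison, was at -0.51 (edgeR adjusted p = 0.0226). Depth of 22.6 to 28.9 M counts limits genes near the filter, many epithelial ones included.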
